A study of Homo sapiens with 14 samples.

Results

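The 508 regions described here are wide stretches of chromatin carrying dimethylated lysine 4 of histone H3 (H3K4me2) that lie between genes in MDA-MB-231 cells, an established human triple-negative breast cancer line. They were taken by length and position alone from a table of 54942 regions. A region was kept if it was at least 4000 bases and under 10 kb long, overlapped no RefSeq protein-coding gene, lay more than 2.0 kb and at most 100.0 kb from the nearest end of such a gene, and lay more than 1.0 kb from the ends of every RefSeq gene of another kind. The counts did not enter this rule, although the length of a region comes from the same H3K4me2 signal. Earlier results of these data were known when the rule was chosen. Of 7948 regions of that length, 1069 overlapped no protein-coding gene, 1011 of these were far enough from a gene end, 771 were also within reach of one, and 508 remained after the noncoding genes were considered. The 508 regions were 0.925% of the regions of the table and held 2.02% of its bases, 2738 kb in all. The nearest protein-coding gene serves below as the name of a region. It is a label of position, and no link between a region and that gene was measured.

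The study profiled H3K4me2 by chromatin immunoprecipitation and sequencing (ChIP-seq) in cells given OICR-9429, an antagonist of WDR5, or its solvent DMSO. The labels give the treatment time as 24 to 96 hours without assigning a time to a library, and both arms carried 5% Drosophila chromatin as a spike-in. The counts of 3 DMSO and 3 OICR-9429 libraries, labelled as biological replicates, were compared here. The inputs and an untreated library were not analysed here.

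H3K4me2 is found at promoters and also at enhancers, the distal sequences that act on genes from afar. WDR5 is a core subunit of the MLL/SET1 complexes, the enzymes that methylate lysine 4 of histone H3, and OICR-9429 occupies the pocket of WDR5 through which it contacts MLL proteins. Long stretches of active marks between genes often hold several neighbouring enhancer elements.

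The sequences of the regions themselves were not analysed here. The promoters of the genes next to them were compared with all promoters, because results below set a region against the end of its nearest gene. Promoter sequences of 300 bases, from 250 before to 50 after the gene start, came from RefSeq (GRCh38.p14) and were found for 344 of the 455 nearest genes. The GC box, GGGCGG, was present on either strand in 67.4% of these promoters and in 58.5% of all 15842 protein-coding promoters. The CCAAT box, CCAAT, was present in 30.5% against 36.4%, and the core of the cAMP response element, TGACG, in 25.6% against 29.5%. Rarer motifs were the TATA box, TATAAA, in 7.27% against 9.63%, the AP-1 site, TGANTCA, in 4.36% against 5.75%, and the E-box, CACGTG, in 8.14% against 8.88%. Median GC content was 66.5% next to the wide distal regions and 62.7% over all promoters. The 4 promoters printed here belong to genes whose distal region lost most relative to the gene end or led its gene list, and each lies inside the H3K4me2 region used as that gene end. PIM3 lies at chr22:49960522-49960821 on the plus strand, PPP1R3C at chr10:91633022-91633321 on the minus strand, ADM at chr11:10304823-10305122 and ID1 at chr20:31605039-31605338, both on the plus strand. Capitals mark the motifs just named on either strand, and neighbouring or overlapping matches run together. PIM3 holds 5 GC boxes, PPP1R3C holds 1 CCAAT box and 1 E-box, ADM holds 1 TATA box and 1 GC box, and ID1 holds 2 GC boxes, 1 CCAAT box and a TATA box that is read on both strands. A match describes the letters and does not show that a factor binds there.
PIM3: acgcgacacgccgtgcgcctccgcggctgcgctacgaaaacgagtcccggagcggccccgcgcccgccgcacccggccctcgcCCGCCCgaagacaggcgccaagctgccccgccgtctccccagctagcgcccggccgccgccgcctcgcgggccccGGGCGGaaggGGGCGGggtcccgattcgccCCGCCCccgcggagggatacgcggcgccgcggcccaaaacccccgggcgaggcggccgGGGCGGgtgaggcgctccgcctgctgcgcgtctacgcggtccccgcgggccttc
PPP1R3C: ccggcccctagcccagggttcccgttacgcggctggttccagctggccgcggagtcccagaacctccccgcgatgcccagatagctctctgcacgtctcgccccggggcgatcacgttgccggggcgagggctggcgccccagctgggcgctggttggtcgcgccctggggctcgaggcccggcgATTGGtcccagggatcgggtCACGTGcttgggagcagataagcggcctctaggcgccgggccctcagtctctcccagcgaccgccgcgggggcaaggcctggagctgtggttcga
ADM: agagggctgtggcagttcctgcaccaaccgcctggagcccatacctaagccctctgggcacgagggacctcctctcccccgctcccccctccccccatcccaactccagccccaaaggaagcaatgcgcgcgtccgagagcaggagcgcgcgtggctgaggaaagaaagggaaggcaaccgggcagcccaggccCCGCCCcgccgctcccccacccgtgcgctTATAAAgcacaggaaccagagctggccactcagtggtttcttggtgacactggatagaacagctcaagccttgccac
ID1: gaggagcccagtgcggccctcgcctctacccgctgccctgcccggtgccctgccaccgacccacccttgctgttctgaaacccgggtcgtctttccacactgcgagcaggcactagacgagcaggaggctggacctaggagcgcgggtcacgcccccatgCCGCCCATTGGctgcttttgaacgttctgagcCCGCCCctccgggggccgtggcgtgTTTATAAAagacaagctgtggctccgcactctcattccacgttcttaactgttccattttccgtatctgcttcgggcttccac

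Library totals lay between 16483098 and 23509413 counts. Levels are given as normalised CPM, the counts of a region scaled to the TMM-adjusted size of its library, and each mean ± SD is over 3 libraries. The DMSO libraries 1 and 2 were the most alike of any replicate pair, but differed by more than sampling noise. As a check of the line, all 9 mesenchymal and basal genes and all 4 epithelial genes had a region at a gene end, as did 4 of 6 hormone receptor and luminal genes, with none at ESR1 or TFF1, and 3 of 6 genes of other cell types, with none at PTPRC, CDH5 or PECAM1. The median level in DMSO was 8.55 CPM per kb for the mesenchymal and basal, 13.7 for the epithelial, 9.14 for the hormone receptor and luminal and 8.82 for the other genes. The presence of the mark at gene ends therefore did not set the mesenchymal genes apart by level. Summed over genes, the levels in DMSO and with OICR-9429 were 83.7 and 107.8, 54.9 and 54.1, 38.4 and 42.6, and 28.7 and 27.0, in that order.

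The wide distal regions were strong relative to the table. Their median count was 718 per library, against 162 over all regions. Per length the difference was smaller. The median level was 7.67 CPM per kb, against 6.70 in narrower regions at the same kind of position, 6.19 in regions of the same length inside genes and 9.13 in regions at gene ends, meaning at most 1.0 kb from where a protein-coding gene starts or stops. Lengths had a median of 4966 bases and distances to the nearest gene end a median of 20.5 kb. Of the 508 regions, 399 lay in no annotated gene and 109 lay inside a noncoding gene. Where the strand of the nearest gene was known, 214 regions lay upstream and 179 downstream. Only 50 regions had a close neighbour of the same kind, with gaps of at most 12.1 kb, in 22 pairs and 2 groups of 3. These groups of 3 lay next to TGFB2, which encodes a ligand of the TGF-beta family, and SLC17A5, which encodes the lysosomal transporter sialin.

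Single regions on either side of the limits of the selection show the levels there. The shortest region, near GTSF1L, held 4000 bases and averaged 48.9 ± 3.22 normalised CPM in DMSO and 47.5 ± 2.13 with OICR-9429. A region of 3999 bases near ZNF217, just outside, averaged 52.7 ± 4.46 and 61.5 ± 5.07. The longest, near OSBPL3, held 9989 bases and averaged 87.4 ± 3.47 and 86.4 ± 8.61, and the first one too long, 10168 bases near MRPL14, averaged 17.1 ± 2.56 and 11.6 ± 1.26. Among distances, a region near PHLDA1 at 2.1 kb averaged 45.9 ± 1.09 and 44.2 ± 5.80, and one near HAPSTR1 that lay too close, at 1874 bases, averaged 19.0 ± 0.911 and 21.8 ± 0.137. At the far limit, a region near HMHB1 at 99.9 kb averaged 30.6 ± 0.666 and 29.1 ± 8.97, and one near KLF6 at 100503 bases, just outside, averaged 46.1 ± 0.363 and 58.2 ± 6.18.

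The first question of the design was which regions changed with OICR-9429. Under TMM scaling, 46 of the 497 testable wide distal regions fell and 49 rose at an adjusted p under 0.05 (edgeR quasi-likelihood test, Benjamini-Hochberg adjustment over all 51156 regions tested). These were 9.26% and 9.86% of the regions, against 14.0% and 17.0% of all regions tested. The other 402 did not pass. In cells profiled in bulk, fewer cells with the mark and less of it per cell cannot be told apart. Changes were small, at 1.24-fold to 1.89-fold for the regions that fell and 1.24-fold to 1.56-fold for those that rose, and 13 and 2 of them respectively reached 1.5-fold. The median log2 fold change was 0.06, beside 0.03 over all regions tested. All 3 OICR-9429 libraries lay below all 3 DMSO libraries in 89 regions and above them in 121, and such separation was seen in 21.5% and 24.8% of all regions.

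The direction of the whole set depended on how the libraries were scaled. With library totals 128 regions fell and 10 rose, where 23.4% and 6.45% of all regions did. With DESeq2 size factors 52 fell and 35 rose, beside 15.2% and 14.0% of all. With offsets fitted by loess against region strength 154 fell and 4 rose, beside 8.71% and 5.39% of all, and the median log2 fold change was -0.23 beside 0.02 over all regions. These were 31.0% and 0.805% of the wide distal regions. Regions of the same length inside genes gave similar values, with 29.1% lower, 3.48% higher and a median of -0.22. Every region that fell under TMM also fell under the 3 other scalings, so 46 regions, 9.26%, fell under all 4, and 6.23% of all regions did. The median log2 fold change of the wide distal regions was 0.06 under TMM. It was lower with DESeq2 size factors, library totals and loess offsets, at 0.02, -0.14 and -0.23. For a fall under TMM, passing under these scalings as well was therefore a weak check. Only 2 of the 49 regions that rose, those near METTL2B and CHD7, rose under all 4 scalings, which is 0.402% beside 2.05% of all regions. Single libraries also set the number of regions that rose. It was 3 without DMSO replicate 1, 6 without DMSO replicate 2, 82 without DMSO replicate 3, 15 when OICR-9429 replicate 2 was left out and 13 when replicate 3 of that group was. The number that fell ranged from 29, without OICR-9429 replicate 2, to 57. Of the 46 regions that fell, 26 passed in each of the 6 fits that left out a library, and 3 of the 49 that rose did. The shares over all regions in these fits are not given here. These numbers therefore do not set the wide distal regions apart from the table.

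**Figure D1:**
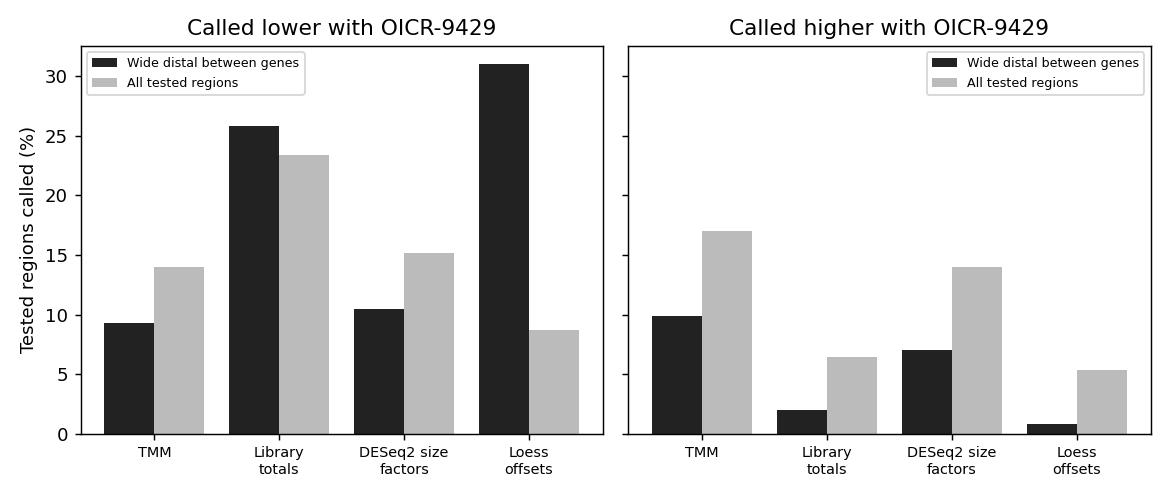
Bars show the percentage of tested regions called lower (left) or higher (right) with OICR-9429 under 4 scalings of the libraries, for the 497 wide distal regions between genes (black) and all 51156 tested regions (grey). Lower calls among the wide distal regions range from 9.26% to 31.0% and higher calls from 0.805% to 9.86%.

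Region strength moved with these results, and its part in them was not tested. Over all regions the median log2 fold change under TMM was -0.29 and -0.36 in the first and the second of 10 strength classes and 0.35 and 0.37 in the strongest 2. In the ninth class, 31.5 to 47.5 normalised CPM, it was 0.35 over 5115 regions, of which 2381 rose and 99 fell. The 212 wide distal regions of that class had a median of 0.09, with 16 higher and 13 lower. Gene-end regions of the same class had a median of 0.40 and wide regions inside genes one of 0.04. In the class below, the median was -0.07 over 99 wide distal regions, -0.07 in wide regions inside genes and 0.26 over all. In the strongest class it was 0.15 over 155 wide distal regions, 0.21 in wide regions inside genes and 0.37 over all. In these 3 classes the wide distal regions thus had a lower median than the table as a whole.

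**Figure D2:**
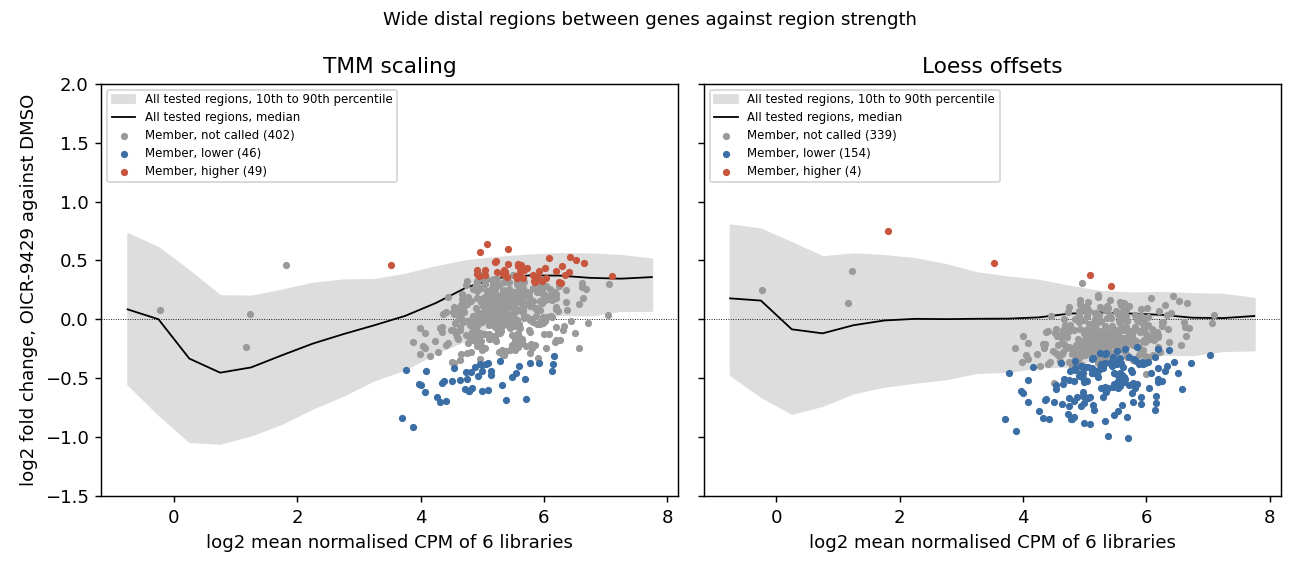
Each point is 1 of 497 wide distal regions, by log2 mean normalised CPM (horizontal) and log2 fold change with OICR-9429 against DMSO (vertical), under TMM scaling (left) and loess offsets (right), beside the median and the 10th to 90th percentile of all tested regions. The points lie mostly below the median line of all regions in both panels, with 154 called lower and 4 called higher under loess offsets.

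Among the wide distal regions, calls went with strength and density. In the weakest of 3 equal groups 29 regions fell and 8 rose (17.5% and 4.82%), with a median log2 fold change of -0.07. In the strongest 9 fell and 30 rose (5.42% and 18.1%), with a median of 0.15. The median levels of these groups lay in the eighth and the tenth strength class. Over all regions 4.07% fell and 29.1% rose in the eighth, and 1.25% and 55.2% in the tenth. In the group with the lowest CPM per kb 31 fell and 4 rose (18.7% and 2.41%). In the densest group 7 fell and 32 rose (4.22% and 19.3%), beside 14.0% and 17.0% of all regions tested. The regions that fell had a median of 5.95 CPM per kb and those that rose one of 10.0. Under loess offsets the contrast was smaller, with medians of -0.31 in the sparsest and -0.16 in the densest group, and no region of the densest group rose. By distance to the gene end, 12 of 133 tested regions fell and 19 rose at 2 to 10 kb, 19 and 17 of 169 at 10 to 30 kb, and 15 and 13 of 195 at 30 to 100 kb. The share that rose was thus 14.3%, 10.1% and 6.67%, and the share that fell 9.02%, 11.2% and 7.69%. The difference between distances was not tested. Across the 497 regions, which share the same 6 libraries, Spearman's rho of the log2 fold change was 0.34 with mean CPM, 0.43 with CPM per kb, 0.01 with length and -0.04 with distance. Of the 50 regions with a close neighbour, 1 fell and 1 rose. Regions inside a noncoding gene gave 10 lower and 10 higher of 104 tested.

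Regions that fell lay next to genes of varied function. The region near INO80C, which encodes a subunit of the INO80 chromatin remodelling complex, lies at chr18:35455980-35463533 (hg38), inside the noncoding gene ZNF24TR and 4.8 kb downstream. It had 48.3, 50.9 and 54.5 normalised CPM in the DMSO libraries and 28.8, 34.6 and 32.7 in the OICR-9429 libraries. The groups did not overlap, and the region fell 1.60-fold (log2 fold change -0.68 ± 0.12 SE, adjusted p = 0.00266). The region at chr11:2091447-2100778, 28.3 kb from INS-IGF2, the readthrough gene of insulin and insulin-like growth factor, went from 60.7, 64.0 and 68.3 to 45.1, 39.5 and 35.8. It fell 1.60-fold with adjusted p = 0.00278. Near KMT5B, which encodes a methyltransferase of histone H4, the region at chr11:68145028-68150818 went from 46.4, 47.4 and 49.5 to 37.1, 33.4 and 26.9. It fell 1.47-fold (adjusted p = 0.00986), with the widest spread among the treated libraries. Near ATP2A2, the calcium pump of the endoplasmic reticulum, the region at chr12:110266433-110271616 had 57.6, 59.4 and 64.9 in DMSO and 40.5, 42.6 and 45.4 with OICR-9429. It fell 1.42-fold (adjusted p = 0.00878). These 4 regions kept their call when any 1 library was left out. They also kept it under the 3 other scalings, each of which gave them lower values than TMM.

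Further decreases among regions at or above the median level lay near MYMK, NOTCH1, TOX2 and GRHL2. The region 3.5 kb from MYMK, which encodes the muscle fusion protein myomaker, had 49.1, 52.5 and 55.0 in DMSO and 39.3, 37.9 and 34.3 with OICR-9429, and fell 1.40-fold (adjusted p = 0.0106). The region 20.7 kb upstream of NOTCH1, a receptor of the Notch pathway, lies at chr9:136566755-136573622. It had 75.3, 74.9 and 91.9 in DMSO and 67.5, 60.1 and 51.4 with OICR-9429, and fell 1.35-fold (adjusted p = 0.0245). Its groups were separate but close, and leaving out OICR-9429 replicate 2 or 3 ended the call. The region 68.0 kb upstream of TOX2, an HMG-box factor, fell 1.37-fold from 54.1 ± 4.80 to 39.5 ± 1.33 (adjusted p = 0.0143). The region 36.8 kb from GRHL2, a transcription factor of epithelial cells, fell 1.32-fold from 55.1 ± 3.63 to 41.9 ± 2.25 (adjusted p = 0.0233). Leaving out either DMSO replicate 1 or the second OICR-9429 library ended both calls. The largest decrease of all, outside the naming rule because the region is weak and named after its values were seen, was near TXN2, which encodes mitochondrial thioredoxin. It went from 20.2, 20.3 and 17.6 to 11.7, 10.4 and 8.53, and fell 1.89-fold (adjusted p = 0.00107).

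Regions that rose under TMM were stronger. The region near METTL2B, which encodes a methyltransferase of transfer RNA, lies at chr7:128529732-128535422, 23.1 kb downstream. It had 34.4, 30.6 and 37.5 normalised CPM in DMSO and 57.8, 47.8 and 49.3 with OICR-9429. The groups were well apart, and the region rose 1.51-fold (log2 fold change 0.60 ± 0.13 SE, adjusted p = 0.00642), under every scaling and without any 1 library. The region near CHD7, a chromatin remodeller, had the largest increase (log2 fold change 0.64, adjusted p = 0.00816), from 24.3, 22.0 and 33.1 to 41.7, 39.7 and 42.5. It was named after its values were seen, and its call was lost without DMSO replicate 1.

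The other increases of the naming rule ended under loess offsets. The region 31.0 kb upstream of SPRY4, a feedback inhibitor of RAS-MAPK signalling, lies at chr5:142355978-142363774 inside SPRY4-AS1. It had 75.3, 73.1 and 80.2 in DMSO and 114.6, 102.8 and 106.0 with OICR-9429, rose 1.42-fold (adjusted p = 0.00705), and had a log2 fold change of 0.50 under TMM and 0.16 under loess offsets. Its call was lost without DMSO replicate 1. The region near TMEM44 rose from 55.5 ± 3.82 to 79.9 ± 5.80 (adjusted p = 0.00728), and its call held without any 1 library. The region near GRIN1, which encodes a subunit of the NMDA receptor, was the densest of all at 18.9 CPM per kb. It had 65.8, 61.0 and 85.5 in DMSO and 112.1, 98.2 and 95.1 with OICR-9429 and rose 1.44-fold (adjusted p = 0.0128). DMSO replicate 3 was the highest control there, and the call was lost without DMSO replicate 1 or 2. The region 2.9 kb upstream of ATF3, a stress-induced transcription factor, had 35.4, 33.5 and 38.5 against 48.8, 49.6 and 50.8. It rose 1.39-fold (adjusted p = 0.0114) with little spread in the treated arm, and its call too was lost without DMSO replicate 1 or 2. Regions near ZMIZ1, a transcriptional coactivator, NPTX1, a neuronal pentraxin, and ARRDC3, an arrestin-domain protein, rose 1.39-fold, 1.38-fold and 1.37-fold, with the same dependence on DMSO replicates 1 and 2, and that near ARRDC3 also on OICR-9429 replicate 3.

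**Figure D3:**
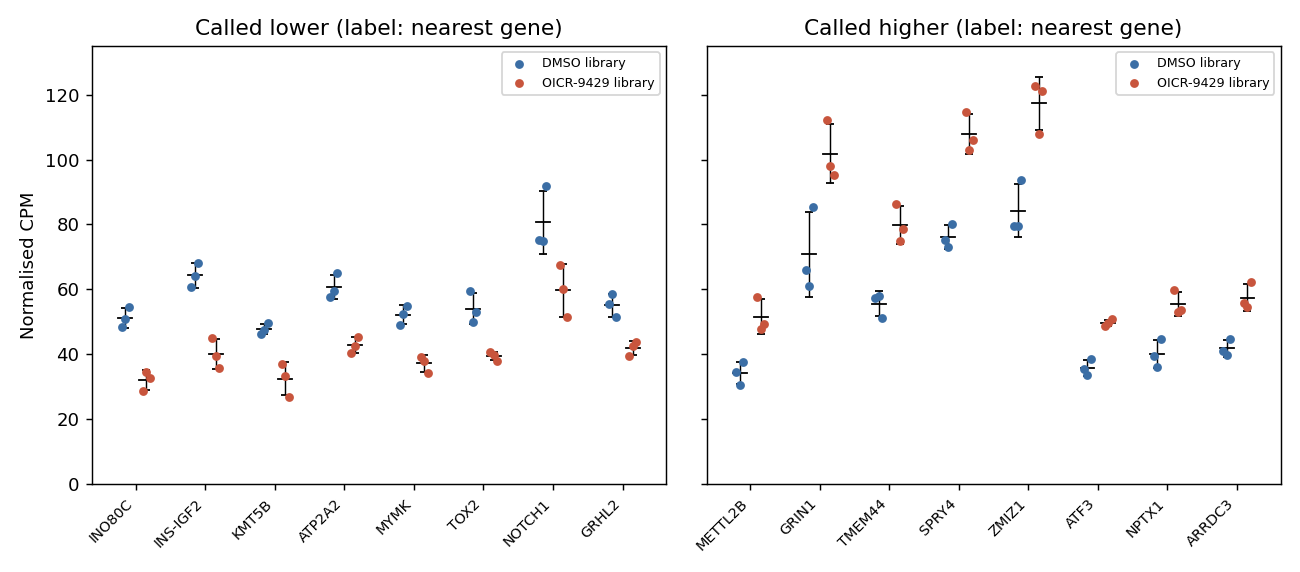
Normalised CPM per library for the 8 regions with the largest decrease (left) and the 8 with the largest increase (right) among those at or above the median level of 39.8 CPM, named by nearest gene, with DMSO in blue, OICR-9429 in red, and bars for the mean ± SD of 3 libraries. The groups do not overlap in any of the 16 regions, as the naming rule required.

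The densest regions after that near GRIN1 did not move together. The region near PIM1, a serine/threonine kinase, had 106.2, 105.2 and 108.4 normalised CPM in DMSO and 94.5, 100.1 and 118.3 with OICR-9429. The treated libraries lay on both sides of the controls, and the log2 fold change was -0.03 (adjusted p = 0.855). Under loess offsets it was -0.37, and the region was called lower. The region near MUC5AC, a gel-forming mucin, averaged 67.9 ± 1.61 and 78.6 ± 13.8 (adjusted p = 0.222). The region 3.7 kb upstream of IRF1, a transcription factor of the interferon response, rose 1.37-fold from 66.5 ± 11.0 to 90.8 ± 9.28 (adjusted p = 0.0227), a call that needed DMSO replicates 1 and 2 and the OICR-9429 library numbered 3. Regions inside LINC01588 near VCPKMT and inside SCIRT near MRPL14 rose 1.29-fold and 1.24-fold (adjusted p = 0.0300 and 0.0455). The first call was lost in 4 and the second in 5 of the 6 fits that left out a library.

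Up to 3 regions shared a nearest gene. The 3 regions near SMURF2, a ubiquitin ligase of SMAD proteins, had log2 fold changes of -0.23, -0.02 and 0.22, and the 3 near SLC17A5 had 0.02, 0.21 and 0.29. The 3 near TES, a focal adhesion protein, had 0.10, 0.17 and 0.23, and the 3 near PHLDA1, a growth factor-induced gene, had -0.06, 0.03 and 0.14. The 3 near TGFB2 had -0.15, -0.03 and 0.19, and the 3 near OGFRL1 had -0.28, -0.12 and 0.03. None of these 18 regions passed the test under TMM, where 14.0% of all regions tested fell and 17.0% rose. Under loess offsets some of them were called lower. These had TMM values of -0.23 and -0.02 near SMURF2, 0.02 near SLC17A5, -0.06 near PHLDA1 and -0.28 near OGFRL1.

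Of the 508 regions, 81 lay next to a gene of 25 lists that cover signalling, stress and cell identity. Of the 79 tested, 5 fell and 12 rose, which is 6.33% and 15.2% beside the 14.0% and 17.0% of all regions tested. At least 1 region lay next to a gene of 21 lists. No region lay next to a gene of the luminal, H3K4 methylation, sterol synthesis or haematopoietic list. The TGF-beta, BMP, SMAD and ID list had 11 regions with a median log2 fold change of -0.20, beside 0.03 over all regions tested. Of these, 2 fell, 18.2% beside 14.0% of all regions, none rose, and 8 had a value under 0. The median level of the list, 36.0 normalised CPM, lay in the ninth strength class, where 1.94% of all regions fell and 46.5% rose. The region 8.3 kb upstream of ID1, an inhibitor of basic helix-loop-helix factors and a target of BMP signalling, had 37.9, 38.6 and 39.0 normalised CPM in DMSO and 28.7, 25.2 and 21.7 with OICR-9429. The controls were nearly equal and all treated libraries lower, and the region fell 1.53-fold (adjusted p = 0.00608). The region 44.2 kb from INHBB, which encodes an activin subunit, fell from 31.5 ± 0.930 to 22.2 ± 2.68 (adjusted p = 0.0123). Both calls held without any 1 library.

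The list of growth factor receptors and RAS-MAPK feedback genes had 15 regions, a median of 0.03, none lower and 2 higher, near SPRY4 and DUSP1. The share that rose was 13.3%, beside 17.0% of all regions tested. The list had a median level of 43.6 normalised CPM, in the ninth strength class, where 46.5% of all regions rose. The region near DUSP1, a phosphatase of MAP kinases, rose from 52.95 ± 3.04 to 67.4 ± 1.84 (adjusted p = 0.0321), and its call was lost in 5 of the 6 fits that left out a library. The NF-kB and cytokine list had 6 regions, a median of 0.17, none lower and 2 higher, and all 6 values lay above 0 under TMM. The share that rose was 33.3%, beside 17.0% of all regions tested. Its median level, 44.5 normalised CPM, lay in the ninth strength class, where 46.5% of all regions rose. The median log2 fold change of the list was -0.16 under loess offsets. Its 2 higher regions lay near the cytokine genes IL24, from 30.8 ± 3.29 to 43.4 ± 5.77 (adjusted p = 0.0171), and CSF2, from 40.5 ± 3.83 to 55.5 ± 5.29 (adjusted p = 0.0173). The first call needed the DMSO library 1 and the OICR-9429 libraries 2 and 3, and the second needed the DMSO libraries 1 and 2 and the OICR-9429 library 3. The YAP/TEAD list had 9 regions, a median of 0.08, none lower and 1 higher, which is 11.1% beside 17.0% of all regions tested. The median level of this list, 44.5 normalised CPM, also lay in the ninth strength class. The higher region, 99.8 kb from F3, the gene of tissue factor, rose from 67.5 ± 2.28 to 84.4 ± 2.11 (adjusted p = 0.0382). Its value was 0.32 under TMM and -0.02 under loess offsets. A region 7.0 kb upstream of TRIB3, a pseudokinase of the stress response, rose from 43.7 ± 2.69 to 58.2 ± 2.07 (adjusted p = 0.0178), and its call was lost without DMSO replicates 1 or 2 or OICR-9429 replicates 1 or 2. The regions near ITGA3, FOXL1 and CLDN5 rose with adjusted p = 0.0365, 0.0363 and 0.0264, each lost in 5 of those 6 fits. Leading regions that did not pass under TMM lay near KLF6 (0.23), TWIST2 (0.01), CAV2 (-0.24), TIMP2 (0.09), TLE1 (0.07) and PMAIP1 (0.19), in log2 fold change. Under loess offsets those near CAV2, TWIST2 and TIMP2 fell (adjusted p = 0.0123, 0.0460 and 0.0446), and those near KLF6 and TLE1 had values of -0.09 and -0.27.

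Of 20 genes listed for naming, 5 had a wide distal region between genes. The region 75.3 kb from MYC, inside the noncoding gene PVT1 at chr8:127818246-127823717, was sparse at 3.08 CPM per kb. It had 20.3, 23.6 and 17.4 normalised CPM in DMSO and 14.3, 13.8 and 11.8 with OICR-9429. Every treated library lay below every control, and the region fell 1.54-fold (log2 fold change -0.62, adjusted p = 0.00843). The call held without any 1 library and under the 3 other scalings, which gave lower values here too. The regions near KLF5, PLAU, the gene of urokinase, CXCL8, a chemokine, and CCN1, a matricellular target of YAP, had log2 fold changes of -0.21, -0.03, 0.09 and 0.11. None of these 4 passed the test under TMM, and that near KLF5 fell with library totals and with loess offsets (adjusted p = 0.00910 and 0.00944). In the hypoxia list the region 19.4 kb downstream of ADM, which encodes the vasodilator adrenomedullin, had 37.4, 33.3 and 29.7 in DMSO and 21.6, 28.1 and 26.3 with OICR-9429. It fell 1.32-fold (adjusted p = 0.0386), and its call was lost without DMSO replicate 1 or 2 or OICR-9429 replicate 2 or 3.

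The second question was whether a region moved relative to the end of its nearest gene. Within a library this ratio does not depend on the scaling between libraries. A gene-end region, the strongest one at either end of that gene, was found for 418 wide distal regions. The ratio fell in 140 of them and rose in 10 at an adjusted p under 0.05 (limma, Benjamini-Hochberg adjustment over 24169 pairs). That was 33.5% and 2.39%, against 36.8% and 1.94% of all distal regions with such a pair. The median change of the log2 ratio was -0.25, against -0.42 over all pairs. Among the 140, the distal region itself had fallen in 33 and was not called in 107, and the gene end had risen in 96 and fallen in none under TMM. With loess-corrected values 101 fell and 10 rose, where 14.0% and 4.44% of all pairs did. The medians were then -0.24 and -0.11, the reverse of the order without the correction. Without DMSO replicate 1 the ratio fell in 72 and rose in 3, without DMSO replicate 2 in 68 and 6, with the first OICR-9429 library left out in 90 and 12, and with the second left out in 106 and 6. The decrease passed in all 6 such fits for 64 regions. The shares over all pairs in these fits are not given here.

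The 4 ratios that fell most lay near PIM3, PPP1R3C, MYC and LRRFIP1. Near PIM3, a serine/threonine kinase, the region 7.1 kb upstream at chr22:49948636-49953662 had 33.3, 34.2 and 33.0 normalised CPM in DMSO and 25.6, 21.9 and 18.2 with OICR-9429. The gene end, which holds the PIM3 promoter printed above, rose, from 46.3 ± 6.22 to 71.9 ± 10.9. The log2 ratio of the pair was -0.42, -0.26 and -0.69 in DMSO and -1.72, -1.62 and -1.82 with OICR-9429, a change of -1.26 ± 0.15 SE (adjusted p = 4.65e-05). Near PPP1R3C, which targets a protein phosphatase to glycogen, the log2 ratio was 1.61, 1.75 and 1.30 in DMSO and 0.14, 0.38 and 0.40 with OICR-9429. The distal region, inside HECTD2-AS1, was the stronger of the pair in every library and fell from 41.2 ± 1.58 to 27.1 ± 0.612, and the gene end rose from 14.1 ± 1.86 to 22.0 ± 1.90. The change was -1.25 ± 0.17 (adjusted p = 0.000118). For MYC the log2 ratio was -2.20, -1.86 and -2.80 in DMSO and -3.49, -3.38 and -3.67 with OICR-9429, a change of -1.23 ± 0.21 (adjusted p = 0.000394). The gene end of MYC rose from 100.0 ± 18.6 to 151.5 ± 8.20. Near LRRFIP1 the change was -1.198 ± 0.24 (adjusted p = 0.00140). These 4 decreases passed without any 1 library and with loess correction.

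Several regions that did not pass on their own passed as a ratio. Near PIM1 the log2 ratio changed by -0.73 (adjusted p = 0.000639), with a gene end that rose from 119.7 ± 23.4 to 191.2 ± 18.2. Near CCN1 it changed by -0.55 (adjusted p = 0.00240) and near KLF5 by -0.67 (adjusted p = 0.00145). The gene end of CCN1 rose from 125.6 ± 10.6 to 197.6 ± 14.35 and that of KLF5 from 47.0 ± 5.82 to 64.3 ± 3.375. In the TGF-beta list the ratio fell in 5 of 10 pairs and rose in none, where 36.8% of all pairs fell and 1.94% rose. Over all lists together the ratio fell in 22 of 72 pairs and rose in none. It fell in 7 of 15 in the RAS-MAPK list, 4 of 9 in the YAP/TEAD list and 1 of 6 in the NF-kB list. Within the TGF-beta list the ratio fell by 0.85 on the log2 scale for ID1, by 0.77 for INHBB and by 0.94 for SMAD6, an inhibitory SMAD. For 2 of the 3 regions near TGFB2, which share the same gene end, it fell by 0.61 and 0.48. The last of these was not called with loess correction (adjusted p = 0.0727). For ADM it fell by 0.93 (adjusted p = 0.00142) and for NOTCH1 by 0.92 (adjusted p = 4.95e-05). The gene end of ADM rose from 133.1 ± 25.9 to 189.2 ± 15.5 and that of NOTCH1 from 64.9 ± 14.4 to 89.5 ± 10.55. For GRHL2, whose gene end averaged 31.0 ± 3.07 in DMSO and 23.8 ± 4.03 with OICR-9429, the ratio changed by -0.0005 (adjusted p = 0.999).

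Near NPTX1 the ratio rose most. The distal region had 39.5, 36.0 and 44.7 normalised CPM in DMSO and 59.8, 52.95 and 53.5 with OICR-9429, and the gene end fell from 13.7 ± 2.32 to 8.56 ± 0.367. The log2 ratio was 1.68, 1.54 and 1.45 in DMSO and 2.76, 2.60 and 2.71 with OICR-9429, a change of 1.13 ± 0.18 (adjusted p = 0.000307). The ratio also rose near PLXND1, a semaphorin receptor, by 0.50, near UGCG, the glucosylceramide synthase gene, by 0.48, and near SH3TC2 by 0.46. In none of these 3 had the distal region itself passed the test, and the gene end of UGCG fell (adjusted p = 0.0101). The increase near UGCG was lost in 1 of the 6 fits that left out a library.

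**Figure D4:**
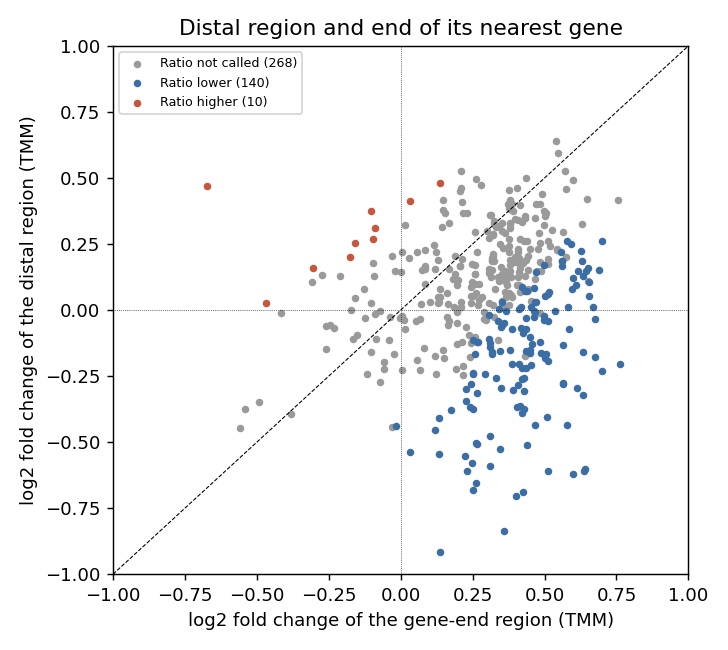
Each point is 1 of 418 wide distal regions with a paired gene-end region, by the log2 fold change of the gene end (horizontal) and of the distal region (vertical) under TMM, coloured by the test of their ratio, and the dashed line marks equal change. The 140 regions whose ratio fell lie below the line and the 10 whose ratio rose lie above it, with NPTX1 farthest to the left.

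A last question was how the set as a whole stood against other classes within each library. The wide distal regions held 2.27%, 2.37% and 2.11% of all counts in the DMSO libraries and 1.91%, 2.08% and 2.15% in the OICR-9429 libraries. The groups overlapped, with means of 2.25 ± 0.129% and 2.05 ± 0.122% (two-sided exact permutation p = 0.2, where 3 against 3 libraries cannot go below 0.1). The summed counts relative to gene-end regions gave log2 ratios of -4.41, -4.30 and -4.61 in DMSO and -4.89, -4.68 and -4.62 with OICR-9429. All treated libraries were lower, the closest by under 0.01, and the mean difference was -0.29, a change of -18.3% (exact permutation p = 0.1, adjusted over the 3 ratios 0.15). Relative to narrower regions between genes the ratio was higher in all treated libraries, by 0.06 (exact permutation p = 0.1, adjusted 0.15). Relative to wide regions inside genes it differed by -0.01 with overlapping groups (exact permutation p = 0.4).

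**Figure D5:**
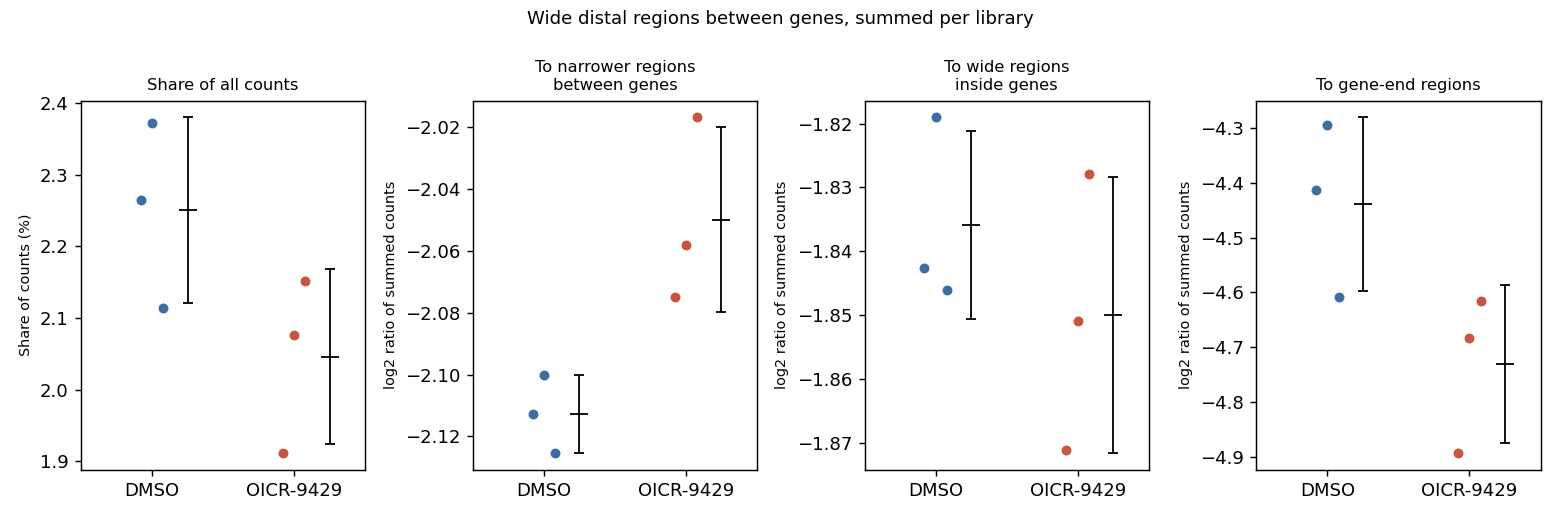
Summed counts of the 508 wide distal regions in each of 6 libraries (points), with the mean ± SD of 3 libraries per group beside them, as a percentage of all counts and as log2 ratios to 3 other classes of regions. Groups overlap for the share of counts and for the ratio to wide regions inside genes, and do not overlap for the other 2 ratios; the vertical axes do not start at 0.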

How the data were processed

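H3K4me2 ChIP-seq counts of 3 DMSO and 3 OICR-9429 libraries were analysed. The deposited table holds whole-number read counts per region and the region length in bases. Per the submitters' processing notes, Bowtie, MACS2, deepTools, featureCounts and DESeq2 are listed with builds hg38 and dm6, with no role, version or setting, and it is not given in the sources used here whether regions were called per library. The spike-in was not used here, so a shift shared by all regions cannot be seen. Library totals ranged from 16483098 to 23509413 counts, and 497 of the 508 regions passed the low-count filter.

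Regions were placed with a RefSeq table of 19970 protein-coding and 39124 other genes. Counts were tested in edgeR 4.0.16 (R 4.3.3) with filterByExpr, TMM and the robust quasi-likelihood test. Loess offsets used limma 3.58.1 with a span of 0.3. Ratios of each region to the strongest region within 1.0 kb of an end of its nearest gene were tested in limma on log2 CPM with a prior count of 0.5, with the lower mean of each pair as the trend covariate, a change made because limma's usual covariate, the mean ratio, recovered none of the changes put into simulated data. Alternatives included DESeq2 1.42.0, and the set called under all 4 scalings was added after seeing the data. Both tests were tested on simulated data. Whole-library values used exact permutation tests. Members and gene lists were chosen with earlier results of these data known. Named regions were the 8 lowest and 8 highest log2 fold changes among called regions with non-overlapping groups and at least the median CPM, the 6 densest, those of the 6 genes with the most regions, the smallest p of each gene list, 20 listed genes, the 4 lowest and 4 highest called ratios, and those at the limits of the rule. The planned description of region sequences was not run.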

Additional observations from a re-analysis of the deposited data

How the results depend on the processing

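Numbers called lower and higher among the 508 regions moved by over 1.5 times under several settings. They were 128 and 10 with library totals, 154 and 4 with loess offsets, 79 and 21 with a mean count of at least 50, 14 and 3 against a fold of 1.2, and 19 and 5 at an adjusted p under 0.01. Without a count filter 62 fell and 28 rose. With lengths of at least 5000 bases they were 24 and 20, and over 10.0 kb from a gene end 30 rose, in both cases over fewer regions. With 1 library left out, 29 to 57 fell and 3 to 82 rose. For the count filters, the fold of 1.2, the stricter adjusted p and the left-out libraries, shares over all regions are not given here. Same-numbered libraries did not deviate together (correlations -0.148, 0.175 and -0.184). With 3 libraries per group such correlations cannot decide whether the numbers pair the samples. With the replicate number as a block 36 fell and 27 rose, which is 7.24% and 5.43% beside 11.4% and 12.4% of all regions tested. Ratios to gene ends then fell in 114 and rose in 8. Leaving out 1 library gave 68 to 195 falling and 3 to 12 rising ratios. The share of counts differed by -0.272 to -0.137 percentage points, and the log2 ratios by -0.377 to -0.211 (gene ends), 0.0462 to 0.0751 (narrower regions) and -0.0251 to -0.0035 (wide regions inside genes). The last reversed to 0.0268 as a difference of mean log2 CPM (exact permutation p = 0.2). Under loess offsets 22 of 67 named regions went from a positive to a negative value, 16 lost and 12 gained a call. Of those called under TMM, 2 reversed, near MRPL14 and F3, to -0.0245 and -0.0179 (adjusted p = 0.868 and 0.894). The region 24.0 kb downstream of SLC17A5 and those near TWIST2 and TIMP2, not called under TMM, were called lower there at -0.316, -0.284 and -0.250. The causes were not tested, beyond the fewer regions or libraries in some settings. Regions with a mean count of 10.5 or less are too shallow to show a change.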

Other observations

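Of the wide distal regions, 11 held almost no reads. In 4 of them, near ATP6V1G3, SERPINA6, LAIR2 and LOC105375116, all 6 libraries were at 0, and the highest count in any library over the 11 was 15. Over the table, 195 of 9177 regions of at least 4000 bases were too low to test. The strongest of the 11, near BDH1, held 8, 7 and 10 counts in DMSO and 10, 14 and 14 with OICR-9429.

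Promoters next to regions that fell (35 with a sequence) held a TATA box in 17.1% and a GC box in 74.3%, and those next to regions that rose (32) in 9.38% and 75.0%, beside 9.63% and 58.5% of all promoters. No AP-1 site was found in the first set, which describes these letters in this window only.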
